A study of Homo sapiens with 12 samples.

Results

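The Frizzled genes, FZD1 to FZD10, were taken from the gene count table by exact match of the gene symbol. All 10 genes were found, each in a single row, among 58307 rows that name a gene. FZD8, which gives the set its name, was chosen by measured values, its higher counts with rapamycin in both cell lines, and the rest of the family was added by name. The rapamycin values of FZD8 are therefore given as a description and carry no test.

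Frizzled proteins are receptors with several membrane-spanning helices that bind secreted Wnt ligands through a cysteine-rich domain outside the cell. With the co-receptors LRP5 and LRP6 they recruit Dishevelled, which stops the destruction complex from degrading beta-catenin, so that beta-catenin reaches TCF and LEF factors at target genes. With other partners, such as ROR1, the Frizzled proteins also act without beta-catenin, in cell polarity and movement, a branch much studied in melanoma through the ligand WNT5A.

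RNA was sequenced from A375 and SK-MEL-28, established human melanoma cell lines, each treated with etoposide, a poison of topoisomerase II, or with etoposide + rapamycin, an inhibitor of the kinase mTOR that was used to induce autophagy. There were 3 polyA-enriched libraries in each of 4 groups, 12 in all, with 28189501 to 32499337 counts each. Every group received etoposide, the labels give neither dose nor time, and no library comes from untreated cells. The study describes the 3 libraries of a group as biological replicates, and the labels give no further detail of the cultures.

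The lineage markers were checked before the comparisons. SOX10, a transcription factor of the neural crest and melanocytes, had group means of 291 to 474 CPM (the count of a gene scaled to a common library size, with the TMM normalization of edgeR), and MITF, PAX3 and S100B were also present. Single libraries ranged from 166 to 579 CPM for SOX10. With rapamycin, the summed melanocyte list was 412 to 667 CPM over the A375 libraries and 304 to 537 CPM over those of SK-MEL-28, so replicates differed. The pigment genes were low in every group. TYR had at most 6 counts in a library, and the group means were 1.63 to 2.50 CPM for PMEL and 0.583 to 1.20 CPM for MLANA. DCT and TYRP1 had 1.89 and 1.53 CPM at most, in the groups labelled SK-MEL-28, a line known to make pigment. Over 12713 genes, libraries of different labelled lines correlated at 0.931 to 0.959 in log2 CPM and libraries of the same group at 0.988 to 0.992, a description across genes that share libraries. The identity of the lines was not tested beyond these values, the line names below are those of the labels, and each difference between lines rests on them. Of the leukocyte markers, PTPRC, CD3E and CD14 were at or near 0 while CD68 and LYZ were detected, and the summed level of the list was 39.7 to 60.0 CPM. The 5 epithelial markers summed to 5.38 to 10.6 CPM, most of it KRT14. The 4 endothelial markers summed to 62.0 to 95.9 CPM, most of it KDR, and the 4 fibroblast markers to 20.9 to 45.8 CPM. Several markers moved with rapamycin. MITF fell in A375 (log2 fold change -0.51, edgeR adjusted p = 0.00248) and SK-MEL-28 (-0.50, 0.00320). LYZ had group means of 16.8 and 6.71 CPM without and with rapamycin in A375, and of 31.9 and 17.7 CPM in SK-MEL-28. S100B had 87.4 and 58.4 CPM in A375, where the endothelial sum was 84.6 to 95.9 CPM without and 62.0 to 64.5 CPM with rapamycin. The part of these in the results was not tested.

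FZD8 and FZD1 are the members on which the rapamycin results turn, and the 250 bases before their start sites are shown for that reason. FZD8 is a gene of 1 exon on chromosome 10, at chr10:35638247-35642296 on the reverse strand, and FZD1 a gene of 1 exon on chromosome 7, at chr7:91264433-91271326 on the forward strand (GENCODE annotation of GRCh38). The upstream sequences are from RefSeq (GRCh38.p14), at chr10:35642297-35642546 for FZD8 and chr7:91264183-91264432 for FZD1, written 5′ to 3′ on the strand of the gene. Capitals mark the GC box GGGCGG on either strand, a motif that Sp1-type factors are known to bind.
FZD8: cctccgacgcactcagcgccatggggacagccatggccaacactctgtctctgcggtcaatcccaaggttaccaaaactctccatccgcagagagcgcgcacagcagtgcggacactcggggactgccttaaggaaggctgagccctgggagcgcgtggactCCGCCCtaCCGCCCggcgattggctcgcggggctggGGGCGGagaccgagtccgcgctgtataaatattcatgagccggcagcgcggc
FZD1: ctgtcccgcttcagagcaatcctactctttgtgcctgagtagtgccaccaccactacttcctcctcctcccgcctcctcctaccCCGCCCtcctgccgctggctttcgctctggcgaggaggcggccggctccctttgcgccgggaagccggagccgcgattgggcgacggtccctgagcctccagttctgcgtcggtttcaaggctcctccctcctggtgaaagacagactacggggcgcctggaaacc

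The FZD8 sequence holds 3 GC boxes and 24 CpG dinucleotides, and the FZD1 sequence 1 GC box and 19 CpG. Both are 65.2% G or C. Over 35116 promoters of this length the median was 58% G or C and 11 CpG, and 42.6% held at least 1 GC box. Of the other Frizzled genes, FZD4, FZD5 and FZD9 are in the promoter table, with 6, 6 and 2 GC boxes. FZD2, FZD3, FZD6, FZD7 and FZD10 are not. The TCF core CTTTGA (11.2% of all promoters) and the E box CACGTG (6.34%) were searched on both strands and matched none of the 5 sequences. These matches describe letters in the window, not binding.

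FZD8 had the highest Frizzled mRNA level per length in all 4 groups and FZD6 the second highest. To compare genes, CPM was divided by the length of the annotated exons in kilobases. Most Frizzled genes are counted under identifiers of assembled rather than annotated genes. The lengths of the assembled genes are not given, so the order of levels and the shares rest on the annotated lengths. FZD8 stood at 54.4 ± 0.390 CPM per kilobase (SD, n = 3) in A375 with etoposide and at 87.3 ± 5.32 with rapamycin added. SK-MEL-28 had 30.5 ± 3.81 without rapamycin and 51.5 ± 2.05 with it. FZD6 lay between 18.1 and 20.1 in the 4 group means, and in each group its libraries were below all FZD8 libraries. FZD7, FZD1 and FZD4 followed, at 3.99 to 12.7. FZD7 and FZD1 could not be separated by their libraries in A375 with etoposide, FZD1 was the higher in A375 with etoposide + rapamycin, and FZD7 was the higher in both SK-MEL-28 groups. FZD2 and FZD9 came next and overlapped in both A375 groups, and in both SK-MEL-28 groups FZD2 was the higher. FZD3 and FZD5, at 0.778 to 1.11 CPM per kilobase, overlapped in all 4 groups.

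**Figure D1:**
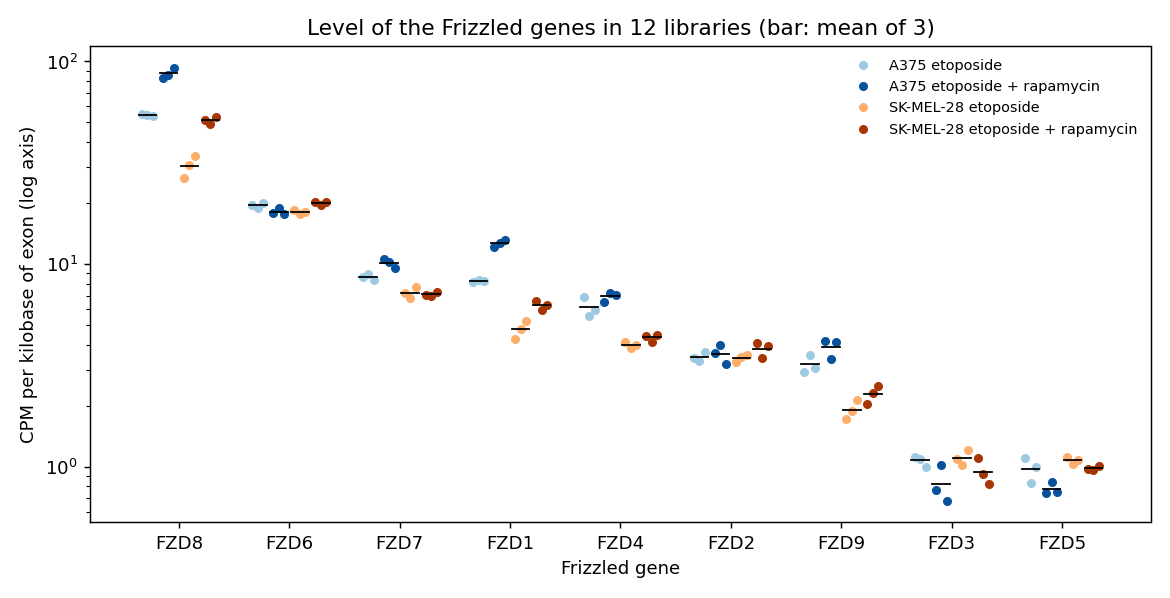
Level of 9 Frizzled genes in CPM per kilobase of exon (log axis) in the 12 libraries, coloured by group, with a bar at each group mean of 3. FZD8 lies above all other genes in every group; FZD10, with 10 libraries at 0, is not drawn.

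FZD10 was close to undetected. It had 4 counts in all, 2 each in 1 A375 library and 1 SK-MEL-28 library with etoposide alone, and was at 0 in the other 10 libraries. A count of 0 allows up to 3 counts, which is 0.0910 to 0.107 CPM in these libraries. This limit covers counting error only. FZD10 did not pass the filter on low counts and entered no test, so 9 of the 10 genes were tested in each comparison.

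FZD8 took 51.5% ± 0.215 (SD, n = 3) of the summed Frizzled level per length in A375 with etoposide and 60.5% ± 1.65 with rapamycin added. In SK-MEL-28 its share was 42.2% ± 2.75 and 52.9% ± 0.463. The sum of the 10 genes went from 106 to 144 CPM per kilobase in A375 and from 72.1 to 97.3 in SK-MEL-28. Without FZD8 the sum went from 51.3 to 57.0 in A375 and from 41.6 to 45.8 in SK-MEL-28. These sums describe mRNA, not receptor protein. Most of the rise in them was that of FZD8, which is the largest term and was chosen for its rise, so its growing share restates that choice.

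**Figure D2:**
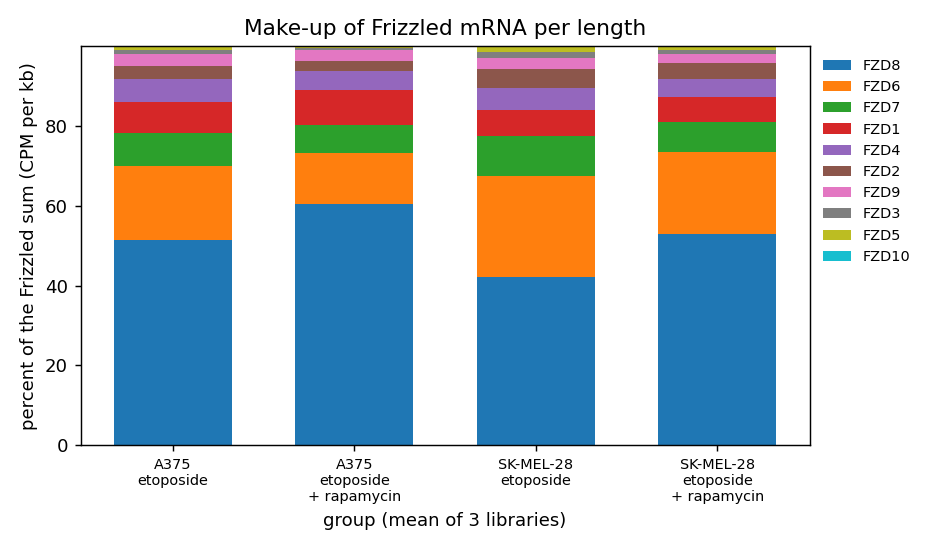
Share of each Frizzled gene in the summed Frizzled level (percent of CPM per kilobase, mean of 3 libraries) in the 4 groups. FZD8, chosen for its rise with rapamycin, takes 51.5% and 60.5% in A375 without and with rapamycin, and 42.2% and 52.9% in SK-MEL-28.

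The first question was which Frizzled genes changed when rapamycin was added to etoposide in A375. FZD8 had 222, 220 and 219 CPM in the 3 etoposide libraries and 337, 346 and 378 CPM in the 3 libraries with rapamycin. All libraries with rapamycin were above all without. The log2 fold change was 0.69 (standard error 0.0496), 1.61-fold, given with no test because FZD8 was picked for it.

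FZD1, a receptor for several Wnt ligands, moved in the same direction. It had 56.3, 57.8 and 57.2 CPM with etoposide and 83.5, 87.6 and 90.6 CPM with rapamycin added, and the groups did not overlap. FZD1 rose 1.53-fold, which is 0.62 on the log2 scale (standard error 0.04999). The adjusted p was 3.61e-06 in the quasi-likelihood test of edgeR, with the Benjamini-Hochberg method over 18844 genes.

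FZD7, a receptor known from stem cells and several tumours, rose less. Its libraries had 39.8, 41.0 and 38.1 CPM with etoposide and 48.5, 47.0 and 43.98 CPM with rapamycin, without overlap. The log2 fold change was 0.24 (standard error 0.0610, edgeR adjusted p = 0.0121), and it missed the threshold without A375 etoposide + rapamycin replicate 1 (0.0639) or A375 etoposide replicate 3 (0.0532).

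Apart from FZD8, 2 of 8 Frizzled genes thus passed an adjusted p of 0.05 in A375, both higher, beside 28.1% of all genes tested (14.3% higher and 13.8% lower). FZD1 alone of the 8 also passed a fold change of 1.5, beside 5.89% of all genes (3.09% higher and 2.8% lower). The groups did not overlap for 3 of these 8 genes (FZD1, FZD6 and FZD7), beside 42.6% of all genes.

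The genes that did not pass lay on either side of 0. The log2 fold change was 0.29 for FZD9, 0.18 for FZD4, a receptor also for norrin, and 0.06 for FZD2, which is linked to WNT5A signaling. It was -0.10 for FZD6, -0.32 for FZD5 and -0.38 for FZD3, a planar polarity receptor in neurons. Their edgeR adjusted p ran from 0.0579 for FZD3 to 0.737 for FZD2. FZD3 is close to the threshold: its libraries had 15.5, 15.1 and 13.8 CPM with etoposide and 10.6, 14.1 and 9.39 CPM with rapamycin, so that 1 library with rapamycin lay within the etoposide range. Without that library, replicate 2, the adjusted p was 0.00639. Its value also passed under 6 other settings, given with the processing alternatives. FZD4 passed without A375 etoposide replicate 1 (edgeR adjusted p = 0.00955).

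In SK-MEL-28, FZD8 had 107, 125 and 138 CPM with etoposide and 209, 200 and 216 CPM with rapamycin added. All libraries with rapamycin were above all without. The log2 fold change was 0.75 (standard error 0.0776), 1.69-fold, again with no test.

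FZD1 had 29.6, 33.0 and 36.0 CPM with etoposide and 45.2, 41.0 and 43.3 CPM with rapamycin in SK-MEL-28, and the groups did not overlap. FZD1 rose 1.31-fold (log2 fold change 0.39, standard error 0.0780, edgeR adjusted p = 0.00378 over 18897 genes), which is below a fold change of 1.5.

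FZD6, which is known mainly from planar polarity and from restraint of beta-catenin signaling, had 75.4, 71.7 and 73.6 CPM with etoposide and 82.7, 80.0 and 82.4 CPM with rapamycin. The groups did not overlap, and the log2 fold change was 0.15 (standard error 0.0468, edgeR adjusted p = 0.0423). This call was narrow: FZD6 did not pass in 5 of the 6 fits that left out 1 library, with adjusted p from 0.0369 to 0.173 over the 6, nor with DESeq2 (0.0515), library totals (0.112), no filter (0.0980) or the replicate number as a block (0.0534).

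Apart from FZD8, 2 of 8 Frizzled genes passed in SK-MEL-28, both higher, beside 19% of all genes tested (8.83% higher and 10.1% lower). None of the 8 passed a fold change of 1.5, beside 4.99% of all genes (1.85% higher and 3.14% lower). The groups did not overlap for 4 of these 8 genes (FZD1, FZD4, FZD5 and FZD6), beside 35.9% of all genes. The log2 fold changes of the genes that did not pass ran from -0.23 for FZD3 to 0.25 for FZD9.

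**Figure D3:**
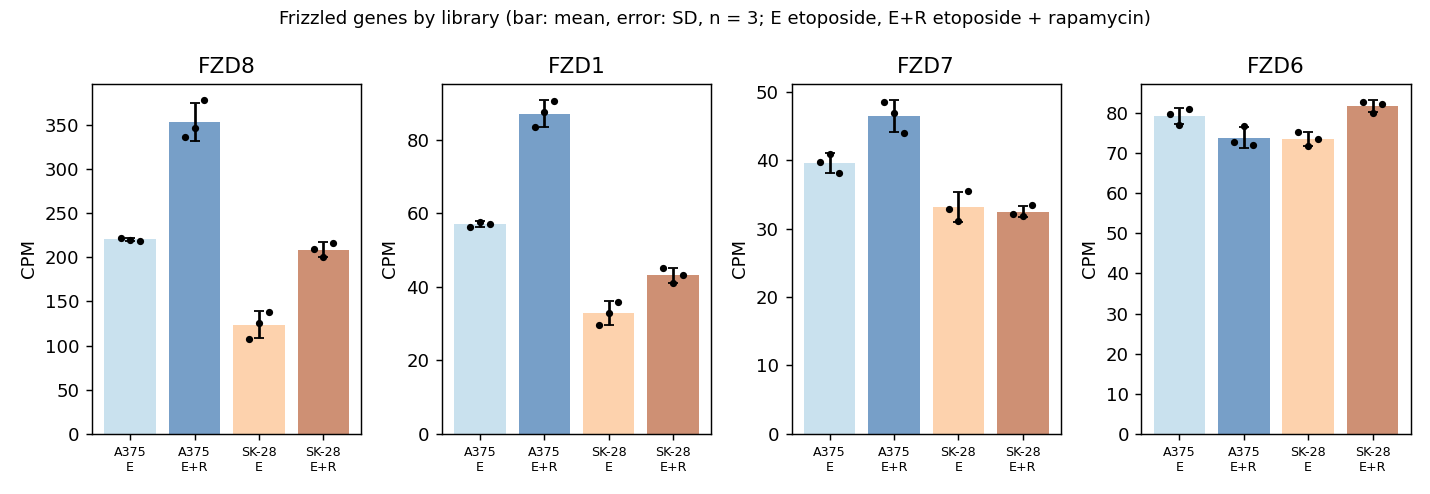
CPM of FZD8, FZD1, FZD7 and FZD6 in each library (points) with the group mean and SD (bars, n = 3). FZD8 and FZD1 are higher with rapamycin in both lines without overlap, while the FZD7 groups overlap in SK-MEL-28.

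Of the Frizzled genes, 3 share exonic sequence with another annotated gene. The exons of FZD4 overlap PRSS23 on the opposite strand, which had 11858 to 13777 counts a library, those of FZD6 overlap BAALC-AS1 on the opposite strand (112 to 185 counts), and those of FZD8 hold the microRNA gene MIR4683 on the same strand (2 to 16 counts) and an unnamed long noncoding RNA on the opposite strand. Whether the counting used strand is not stated, so reads of such pairs cannot be told apart. PRSS23 had a log2 fold change of 0.18 in A375, as FZD4 did, and of 0.06 in SK-MEL-28.

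Rapamycin fold changes in A375 also moved with base composition. Genes were put in 10 equal bins by the GC content of their longest annotated transcript. The median log2 fold change went from -0.19 in the lowest bin, which holds FZD3 and FZD6, to 0.26 in the highest, which holds FZD8 (64.6% GC) and FZD9 (68.5%). In SK-MEL-28 the same bins had medians of -0.03 and 0.07. With a smooth trend on GC content and exon length taken out, an alternative chosen after seeing the data, FZD8 stood at 0.43 in A375 and 0.73 in SK-MEL-28. FZD1, with 47.6% GC, stood at 0.66 and 0.44. FZD9 went from 0.29 to -0.01 in A375, FZD7 from 0.24 to 0.14, FZD6 from -0.10 to 0.07, and FZD3 from -0.38 to -0.20. The part of base composition in these fold changes was not tested further. Values with the trend taken out were obtained for the Frizzled genes alone. Its part in the A375 values of the Wnt genes below, and in their differences in response between the lines, was not tested.

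**Figure D4:**
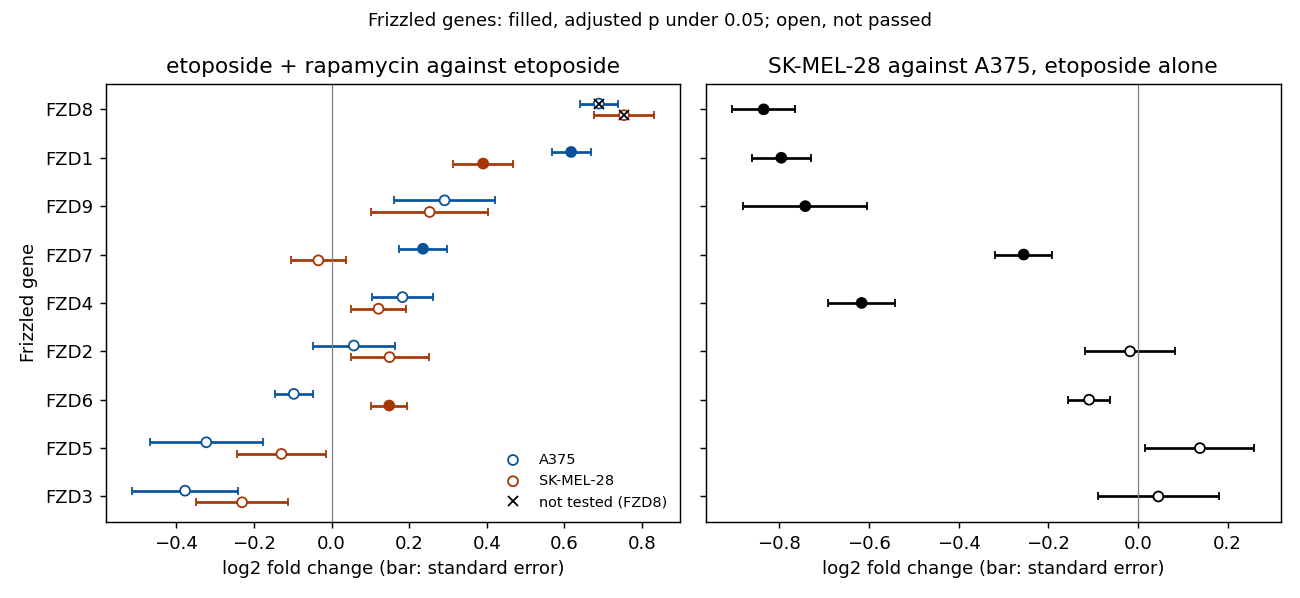
Log2 fold change with its standard error for 9 Frizzled genes, with rapamycin in each line (left) and for SK-MEL-28 against A375 under etoposide (right). Filled points passed an adjusted p of 0.05, open points did not, and crosses mark FZD8, not tested on the left. FZD8 and FZD1 lie furthest right on the left panel and furthest left on the right panel.

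The next question was whether the response to rapamycin differed between the lines, tested as an interaction over all 12 libraries. FZD6 was the only 1 of 8 genes that passed, beside 5.62% of all genes (2.66% higher and 2.97% lower). None of the 8 also passed a fold change of 1.5, beside 1.62% of all genes. The FZD6 response was 0.25 higher on the log2 scale in SK-MEL-28 (standard error 0.0665, edgeR adjusted p = 0.0348). In A375 the FZD6 libraries had 79.8, 77.1 and 81.1 CPM with etoposide and 72.7, 76.8 and 72.1 CPM with rapamycin, all of the latter below the former, the reverse of SK-MEL-28. With the GC and length trend taken out, the FZD6 log2 fold change stood at 0.07 for A375 and at 0.17 for SK-MEL-28, so that both lay above 0. The call was lost in 8 of the 12 fits that left out 1 library. FZD7 (-0.26, adjusted p = 0.0994) and FZD1 (-0.22, adjusted p = 0.19) did not pass. The difference for FZD8 was 0.07 (standard error 0.0983), with no test.

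The cell lines were then compared under etoposide alone. FZD8 was not chosen by this contrast. Its etoposide libraries are the baseline of the rapamycin values that chose it, so its test here is not independent of that choice. Of 9 genes, 5 were lower in SK-MEL-28 and 0 higher by the edgeR test over 20101 genes, beside 31.8% of all genes (16.7% lower and 15.1% higher). FZD8 was 1.78-fold lower in the SK-MEL-28 libraries, or -0.84 on the log2 scale (standard error 0.0703, edgeR adjusted p = 8.17e-08), and the highest SK-MEL-28 library, at 138 CPM, was below the lowest A375 library, at 219. FZD1 was 1.74-fold lower (adjusted p = 7.13e-08). FZD9, a receptor gene with few counts here, had 4.02, 4.40 and 5.01 CPM in SK-MEL-28 and 6.87, 8.38 and 7.23 CPM in A375, without overlap, 1.67-fold lower (adjusted p = 0.000481).

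FZD4 was 1.53-fold lower in SK-MEL-28, with 30.5, 28.4 and 29.6 CPM against 50.8, 41.0 and 43.9 CPM in A375 (edgeR adjusted p = 5.75e-06). PRSS23, which overlaps it, differed by -0.05 on the log2 scale. FZD7 was 1.19-fold lower (adjusted p = 0.00476). Each of these 5 calls was kept on leaving out any of the 12 libraries. FZD8, FZD1, FZD9 and FZD4 also passed a fold change of 1.5, which 12.5% of all genes did (7.16% lower). FZD2, FZD3, FZD5 and FZD6 did not pass, with log2 differences of -0.02, 0.05, 0.14 and -0.11. The groups did not overlap for 6 of 9 genes, beside 43.3% of all genes.

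Genes whose pattern over the 12 libraries was most like that of FZD8 were found by the root mean square difference of log2 CPM, each gene centred on its own mean, over 12709 genes. The closest were MAFF (0.0930), CBX2 (0.0959), SLC12A7 (0.101), TMEM255B (0.105) and LINC00565 (0.117), where the median of all genes was 0.571. MAFF, a small Maf transcription factor, had group means of 84.0 and 153 CPM in A375 without and with rapamycin, and of 51.1 and 83.6 CPM in SK-MEL-28. Among the Frizzled genes FZD1 was the closest to FZD8, at 0.146 and rank 15, followed by FZD9 at 0.255 and rank 159. The measure is a description over libraries that share their groups.

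The rest of the pathway was described with a list of 92 genes ordered by role, the Wnt list, all found in the file. It includes SMO, a related receptor that serves Hedgehog signaling, which is counted in the totals below. The roles share 6 genes (AXIN2, LEF1, LGR5, NKD1, RNF43 and ZNRF3 are also Wnt targets), so counts by role overlap. In A375, 69 passed the filter and 17 were higher and 16 lower with rapamycin, 47.8% of those tested beside 28.1% of all genes, with a median log2 fold change of 0.01. The count of 33 went to 20 without A375 etoposide + rapamycin replicate 1 and to 21 without A375 etoposide replicate 3, and was 20 to 29 over all fits that left out 1 library. The share of all genes in those fits was not computed, so the lower counts cannot be read as particular to the list. In SK-MEL-28, 66 passed the filter and 14 were higher and 10 lower, 36.4% beside 19%, with a median of -0.01. Under etoposide, 8 of 71 were higher and 31 lower in SK-MEL-28, 54.9% beside 31.8%, with a median of -0.15. The medians over all genes were -0.01, 0.01 and -0.0045. The shares over all genes were not matched to the list by count level or type of gene, and the differences between shares were not tested.

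Among the ligands, 2 of 11 tested rose in A375 and 1 of 10 in SK-MEL-28, and none fell. These shares are near those of all genes higher, 14.3% and 8.83%. WNT5A, the ligand with the highest level per length, had 286 ± 8.31 CPM (SD, n = 3) in A375 with etoposide and 304 ± 7.56 with rapamycin, and 77.5 ± 2.68 and 105 ± 0.906 CPM in SK-MEL-28. Its log2 fold change was 0.09 in A375 (edgeR adjusted p = 0.151) and 0.44 in SK-MEL-28 (4.53e-05), and the responses differed (0.36, adjusted p = 0.00223). WNT5A was also lower in SK-MEL-28 under etoposide (-1.89 on the log2 scale, 5.21e-15). WNT9A rose in A375 (0.23, adjusted p = 0.0196), stood at -0.14 in SK-MEL-28 (0.184), and was lower in SK-MEL-28 under etoposide (-1.08, 1.33e-09).

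Both genes of ligand secretion rose in A375 and 1 of 2 in SK-MEL-28, beside 14.3% and 8.83% of all genes higher. PORCN, which attaches the lipid that Wnt ligands need to bind Frizzled, went from 28.8 ± 0.973 to 55.8 ± 2.92 CPM (log2 fold change 0.96, edgeR adjusted p = 7.00e-07). In SK-MEL-28 it had 27.1 ± 1.82 and 31.2 ± 0.0475 CPM (0.20, adjusted p = 0.0859), and the responses differed by -0.75 (0.000144). WLS, the carrier that takes Wnt ligands to the cell surface, rose by 0.31 in A375 (0.00102) and by 0.31 in SK-MEL-28 (0.00150).

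Of the co-receptors, LRP6 fell in both lines, with log2 fold changes of -0.26 (edgeR adjusted p = 0.00174) and -0.20 (0.0466). LRP5 did not pass in either (0.15 and -0.09) and was higher in SK-MEL-28 under etoposide (0.53, 3.89e-05). ROR1, a co-receptor for WNT5A, fell in A375 (-0.63, 0.00909) and stood at 0.01 in SK-MEL-28. Among the genes that control Frizzled turnover, RNF43, a ubiquitin ligase that removes Frizzled from the surface, fell in A375 from 1.60 ± 0.142 to 0.691 ± 0.355 CPM (-1.20, adjusted p = 0.0248) at a low level. ZNRF3, a related ligase, did not pass in any contrast. LGR4, a receptor for R-spondins, fell in A375 (-0.31, 0.0445). In SK-MEL-28, RNF43 stood at -0.41 (0.443) and LGR4 at -0.12 (0.404). The difference in response between the lines did not pass for ROR1 (0.65, edgeR adjusted p = 0.167), RNF43 (0.80, 0.409) or LGR4 (0.19, 0.481).

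Of the secreted antagonists, SFRP1, a decoy that binds Wnt, had the highest level per length. It rose in both lines, by 0.12 (edgeR adjusted p = 0.0385) and 0.25 (0.00194), and was lower in SK-MEL-28 under etoposide (-0.62, 7.75e-10). DKK1, which blocks LRP5 and LRP6, rose in SK-MEL-28 (0.19, 0.0385) and was higher there under etoposide (0.90, 1.42e-09). In A375 it stood at 0.08 (0.253), and the difference in response did not pass (0.12, 0.439). DKK3, counted in this list, fell in both lines (-0.94, 0.00127, and -0.79, 0.00174), and its action on Wnt signaling was not tested.

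Inside the cell, 4 of 13 genes of the Dishevelled and destruction complex group rose and 4 fell in A375, beside 28.1% of all genes in either direction, and 2 rose and 1 fell in SK-MEL-28, near the 19% of all genes. DVL1, a Dishevelled gene, rose in A375 (0.34, edgeR adjusted p = 0.000244) and stood at -0.02 in SK-MEL-28, and the responses differed (-0.36, 0.00727). CTNNB1, which encodes beta-catenin, fell in A375 (-0.20, 0.00282). NKD2, which binds Dishevelled, rose in both lines at low levels, from 1.38 ± 0.167 to 3.56 ± 0.808 CPM in A375 (1.37, 0.000993) and from 0.541 ± 0.131 to 1.37 ± 0.175 CPM in SK-MEL-28 (1.33, 0.0123). Its relative NKD1 fell in A375 (-0.87, 0.00136). The difference in response between the lines did not pass for CTNNB1 (0.14, 0.171) or NKD1 (0.62, 0.268).

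Among TCF factors and cofactors, 4 rose and 1 fell of 12 in A375, beside 14.3% and 13.8% of all genes, and 5 rose and 3 fell in SK-MEL-28, beside 8.83% and 10.1%. The corepressor genes TLE3 and TLE2 rose in both, TLE3 by 0.59 (edgeR adjusted p = 0.000396) and 0.33 (0.0234), and TLE2 by 0.75 (0.00114) and 0.79 (0.0119). Their relatives did not move as one: TLE1 rose in both (0.36, 0.000168, and 0.24, 0.0139), and TLE4 fell in both (-0.26, 0.00152, and -0.43, 0.000108). TCF7L2, a TCF factor, did not pass with rapamycin in either line (edgeR adjusted p = 0.974 and 0.874). TCF7 fell in SK-MEL-28 (-0.69, 0.0277), and PYGO2, a coactivator of beta-catenin, rose in both (0.17, 0.0221, and 0.23, 0.00500). For TCF7 the difference in response between the lines did not pass (-0.49, 0.227).

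Of the planar polarity partners, PRICKLE1 fell in both lines (-0.53, edgeR adjusted p = 0.0452, and -0.72, 0.00585), as did PRICKLE2 (-0.33, 0.0464, and -0.63, 0.00226). CELSR1 and PRICKLE3, with the highest levels per length in this group, did not pass with rapamycin. Of 9 Wnt target genes tested, 6 fell and 0 rose in A375, beside 13.8% of all genes lower and 14.3% higher, and 2 rose and 2 fell in SK-MEL-28, beside 8.83% higher and 10.1% lower. Of the 6 that fell in A375, AXIN2, NKD1 and RNF43 also count in another role. TNFRSF19 fell in both (-0.60, 1.08e-05, and -0.29, 0.00754). CCND1, which encodes cyclin D1, fell in A375 (-0.13, 0.0246) and rose in SK-MEL-28 (0.27, 0.000388), and these responses differed (0.41, 0.000137). SMO, a relative of the Frizzled receptors that serves Hedgehog signaling, rose in both (0.34, 0.00348, and 0.37, 0.00232).

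**Figure D5:**
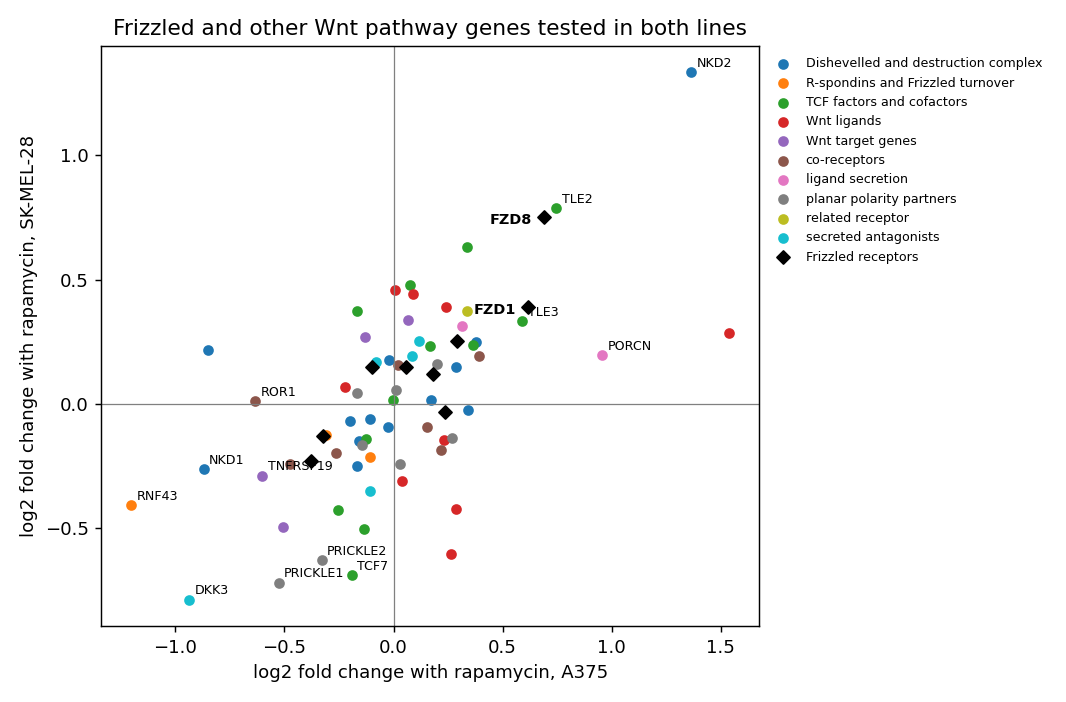
Log2 fold change with rapamycin in A375 (horizontal) and SK-MEL-28 (vertical) of the Wnt list genes tested in both lines, coloured by role, with the Frizzled genes as diamonds. FZD8 (0.69 and 0.75) and FZD1 (0.62 and 0.39) lie on the upper right; names mark the 12 genes with the smallest adjusted p among those past a fold change of 1.5 in either line.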

How the data were processed

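Polyadenylated RNA of 12 libraries was sequenced. The authors aligned reads to hg38 with HISAT2 and estimated expression with StringTie, and deposited raw counts per gene and library, without normalization. How coverage became counts, and whether strand was used, is not given in the sources used here. The 5 rows without a gene name were removed before library sizes were computed. They held at most 0.0053% of a library.

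Each cell line was fitted alone, and cell lines and the interaction in a fit of all 12 libraries, with edgeR 4.0.16 (TMM, filterByExpr with a minimum count of 10, quasi-likelihood test) in R 4.3.3. Genes passed at a Benjamini-Hochberg adjusted p under 0.05 over all genes tested. Log2 fold changes above 0 mean a higher level with rapamycin, or in SK-MEL-28. Scripts were tested on simulated data. Exon lengths (all exons of a gene together) and GC percentages (its longest transcript) were taken from GENCODE release 44 and were found for 82.4% of tested genes.

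The Frizzled genes and the gene lists were chosen with earlier results of these data known. The values of 1 marker gene are not reported here, and the sum of its list includes it. Named Wnt genes were those past a fold change of 1.5 with rapamycin in either line, at most 12 by smallest adjusted p, and the 2 with the highest level per length in each role group. Genes like FZD8 were the closest 5 among those with a mean of at least 100 counts (log2 CPM with a prior count of 2). The marker genes MITF, S100B and LYZ, and TLE1 and TLE4 of the Wnt list, were singled out after their values were seen.

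Alternatives were DESeq2 1.42.0, its size factors, library totals, no filter, 10 counts in every library, another set of libraries in the fit, a replicate block, halved counts, summed rows, a fold change over 1.5, each library left out, and, added after seeing the data, the GC and length trend removed (loess, span 0.5).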

Additional observations from a re-analysis of the deposited data

Results flagged for a closer look

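The response of FZD6 to rapamycin was 0.25 higher on the log2 scale in SK-MEL-28 than in A375 (standard error 0.0665, edgeR adjusted p = 0.0348 over 20101 genes). It is listed because the interaction itself passed the threshold. All 3 libraries with rapamycin were below all 3 without in A375, and above them in SK-MEL-28. With the GC and length trend taken out, the log2 fold change stood at 0.07 for A375 and at 0.17 for SK-MEL-28. Of the 12 fits that leave out 1 library, 4 kept the call, and the adjusted p ran from 0.0294 to 0.113 over the 12.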

How the results depend on the processing

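Of 625 alternative values of single Frizzled genes, 580 were counted as the same. For values with an adjusted p this means the same direction and the same side of the threshold. Values without one are the FZD8 difference in response and those with the GC and length trend taken out. For these it means a shift below the SD between replicates, which allows a change of sign near 0 (FZD2 in A375, 0.06 to -0.02). In A375, 2 Frizzled genes other than FZD8 passed, 1 with a fold change over 1.5, 4 with library totals, and 1 to 3 on leaving out single libraries. In SK-MEL-28, 2 passed, 0 with a fold change over 1.5, 1 each with DESeq2, library totals and no filter, and 1 to 2 on leaving out single libraries. For the interaction, 1 passed, 0 with a fold change over 1.5 or no filter, and 0 to 2 on leaving out single libraries. The interaction of FZD1 then passed once, without SK-MEL-28 etoposide replicate 1 (edgeR adjusted p = 0.0494). The Wnt list counts of 33, 24 and 39 (A375, SK-MEL-28, between lines) were 12, 6 and 21 with a fold change over 1.5. On leaving out single libraries they were 20 to 29, 17 to 26 and 32 to 41. The lowest for A375 came without A375 etoposide + rapamycin replicate 1 (20) and A375 etoposide replicate 3 (21). Shares of all genes were not computed for the fits that left out single libraries.

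FZD3 in A375 (main adjusted p = 0.0579) passed with DESeq2 (0.0323), library totals (0.0356), 10 counts in every library (0.0471), halved counts (0.0487), one fit of 12 libraries (0.0494) and the replicate block (0.0406). FZD6 in A375 passed with library totals (0.0493). FZD8 in A375 was 0.43 with the GC and length trend taken out, against 0.69.

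Same-numbered libraries did not deviate together (correlations of -0.065 to 0.00048), so the numbers were not read as pairs. With the replicate block 1 Frizzled gene other than FZD8 passed in SK-MEL-28.

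Values near 0 that had not passed, or for FZD8 carried no test, changed sign on leaving out single libraries. These were the differences in response between the lines of FZD9 (-0.12 to 0.061), FZD4 (-0.16 to 0.0062) and FZD8 (-0.018 to 0.16), rapamycin in A375 for FZD2 (-0.018 to 0.14), rapamycin in SK-MEL-28 for FZD7 (-0.080 to 0.020), and the line differences of FZD2 (-0.044 to 0.027) and FZD3 (-0.019 to 0.10). With the trend taken out in A375, FZD2 was -0.02, FZD6 0.07 and FZD9 -0.01. The cause of these changes was not tested. FZD9, FZD5, FZD3 and FZD2 had 123 to 547 counts a library, which limits the precision of their fold changes.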
